A study of Mus musculus with 8 samples.

Results

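The genes described here are the mouse interleukins and interleukin receptors, chosen as every gene with a protein-coding transcript whose symbol begins with Il and a digit. The rule found 82 genes among 55335 genes, of which 21797 had a protein-coding transcript, and these 82 genes held 310 of 142351 transcripts. RNA came from CD8 T cells sorted from B16 tumours, B16 being a mouse melanoma line that was injected intravenously and grown for 14 days. The WT group was C57BL/6 mice without a deletion, and the CD36_KO group was mice on the same background that lack CD36, a membrane protein for the uptake of fatty acids and oxidised lipids. The hosts were otherwise described alike, and the sources used here do not give the allele, the age or the number of mice. The series compares sorted tumour T cells with and without CD36.

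The 8 deposited samples are titled as 4 sequencing lanes of 1 library per genotype, so a difference between the libraries has no replicate check and carries no p-value. Each lane held 2497048 to 2611740 estimated counts, 10071960 for WT and 10363391 for CD36_KO. Cd36 itself gave 1194 WT and 358 CD36_KO counts, a log2 ratio of -1.98 (95% counting interval -2.15 to -1.80). All 9 CD8 T cell markers examined were higher in CD36_KO by 2-fold or more, with summed levels of 292 to 301 CPM per WT lane and 939 to 989 CPM per CD36_KO lane. Markers of other cells were present in both libraries, with macrophage markers summed at 4825 to 4874 against 3612 to 3645 CPM and melanoma markers summed at 3886 to 4009 against 838 to 887 CPM. Both libraries thus held RNA of cells other than CD8 T cells, and in such bulk RNA fewer cells of a type and less RNA per cell cannot be told apart.

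Interleukins are secreted proteins by which leukocytes and tissue cells signal to each other, and most act through a receptor of several chains. Receptor chains are shared within families. The common gamma chain serves IL-2, IL-4, IL-7, IL-9, IL-15 and IL-21, gp130 serves IL-6, IL-11 and IL-27, and the accessory protein IL1RAP serves IL-1, IL-33 and IL-36. In CD8 T cells IL-7 and IL-15 are known for survival and memory, IL-2 for expansion, and IL-12 and IL-18 for interferon-gamma production, while IL-1 and IL-33 are known as alarm signals of myeloid and stromal cells.

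Some neighbouring genes and alternative starts carry contrasts described in the results, and their upstream sequences follow so that they can be compared. They are the 250 bases before the RefSeq start site on GRCm38.p6, read 5′ to 3′ on the strand of the gene, and a promoter entry was found for 65 of the 82 genes and for 29 of the 34 measured ones. Capitals mark matches, on either strand, to any of 7 motifs. ETS factors were searched as GGAAGT, RUNX factors by the letters TGTGGT, and AP-1 as the full site TGACTCA. The TATA box was searched as TATAAA, T-box factors such as T-bet by the letters GGTGTGA, the cyclic AMP element by its core TGACGT, and C/EBP as TTGCNNAA. Il1b and Il1a encode the main IL-1 ligands and lie side by side, Il1r1 has a pair of start sites for its coding transcripts, and Il16 has one start for a long and another for a short transcript.
Il1b, chr2:129371140-129371389, minus strand: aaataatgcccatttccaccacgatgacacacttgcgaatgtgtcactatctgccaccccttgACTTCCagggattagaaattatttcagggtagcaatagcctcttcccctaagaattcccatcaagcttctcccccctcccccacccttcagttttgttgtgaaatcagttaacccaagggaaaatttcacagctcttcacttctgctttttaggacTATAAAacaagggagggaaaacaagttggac
Il1a, chr2:129309973-129310222, minus strand: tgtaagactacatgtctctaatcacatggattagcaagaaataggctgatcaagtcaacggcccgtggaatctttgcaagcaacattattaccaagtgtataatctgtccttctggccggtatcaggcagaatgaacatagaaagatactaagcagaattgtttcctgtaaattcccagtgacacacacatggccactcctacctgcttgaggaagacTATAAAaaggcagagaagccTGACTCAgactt
Il1r1, upstream start, chr1:40224830-40225079, plus strand: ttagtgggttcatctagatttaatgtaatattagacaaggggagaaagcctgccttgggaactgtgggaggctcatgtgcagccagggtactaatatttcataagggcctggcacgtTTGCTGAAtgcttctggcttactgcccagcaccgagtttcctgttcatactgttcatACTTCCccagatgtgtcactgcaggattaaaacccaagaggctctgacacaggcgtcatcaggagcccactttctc
Il1r1, downstream start, chr1:40266336-40266585, plus strand: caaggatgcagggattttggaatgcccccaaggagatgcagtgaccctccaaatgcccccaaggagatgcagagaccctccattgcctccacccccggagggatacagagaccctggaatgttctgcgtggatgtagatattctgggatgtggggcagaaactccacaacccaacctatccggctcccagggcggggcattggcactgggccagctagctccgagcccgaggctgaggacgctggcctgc
Il16, long transcript, chr7:83735540-83735789, minus strand: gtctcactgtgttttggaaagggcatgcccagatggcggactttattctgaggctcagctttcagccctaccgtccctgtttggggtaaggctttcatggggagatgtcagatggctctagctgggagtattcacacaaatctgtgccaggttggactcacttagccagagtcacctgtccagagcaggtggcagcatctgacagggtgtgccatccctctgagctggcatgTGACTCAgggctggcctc
Il16, short transcript, chr7:83655496-83655745, minus strand: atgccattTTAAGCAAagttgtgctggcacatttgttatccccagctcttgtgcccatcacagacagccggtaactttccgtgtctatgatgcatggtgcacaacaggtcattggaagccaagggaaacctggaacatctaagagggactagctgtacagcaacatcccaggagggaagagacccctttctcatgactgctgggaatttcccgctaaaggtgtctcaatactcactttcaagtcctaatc

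The Il1b and Il1a windows both held TATAAA, 31 and 32 bases before the start, a match found in 12.4% of 32817 windows of this length. The Il1a window also held the AP-1 letters TGACTCA 12 bases before the start, found in 4.5% of windows, and the Il1b window held GGAAGT 187 bases before it, found in 19.7%. The upstream Il1r1 window held GGAAGT at 76 bases and TTGCNNAA at 133 bases before the start, and the downstream window, which lies inside the span of the gene, held none of the 7 motifs. TTGCNNAA was found in 9.6% of windows. The long Il16 window held TGACTCA 18 bases before the start, and the short one, also inside the span of the gene, held TTGCNNAA at 242 bases. A match is a description of the letters only.

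Of the 82 genes, 34 were measured, meaning a mean of at least 5 CPM, or counts per 1000000, over the libraries after TMM scaling. Among the rest, 21 had at least 10 counts over both libraries, 16 had 1 to 9 counts and 11 had none. Il7r, Il6ra, Il2rg, Il16, Il18rap, Il27ra, Il1b and Il18r1, 8 genes, were higher in the CD36_KO library by 2-fold or more with a 95% counting interval that excluded no difference. Il1r1, Il33, Il1a and Il17rc, 4 genes, were at least 2-fold lower, and 22 genes lay between. Over all 12177 measured genes the same rule called 6.5% higher and 10.8% lower. The median log2 ratio, CD36_KO over WT, was 0.24 over the 34 genes and -0.13 over all measured genes, and 55.9% of the 34 against 41.1% of all genes lay above 0. In 14 of the 34 genes every CD36_KO lane was above every WT lane, against 19.6% of all genes, and in 8 every CD36_KO lane was below, against 33.3% of all genes. Lanes of 1 library share their cells, so lanes that do not overlap show counting precision and nothing about animals.

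The counts of genes depended on the scale. By total counts with no composition factor 13 of the 34 were higher and 4 lower, against 9.14% and 7.71% of all measured genes. In TPM (transcripts per 1000000, which allow for transcript length) 14 were higher and 1 lower on the log2(TPM + 1) scale. The shares of all measured genes were then 12.33% and 2.7%, and these TPM calls used the ratio alone, without an interval. The scales place the whole set of genes differently, since the median of all measured genes was -0.13 with TMM, 0.07 by total counts and 0.37 in TPM. The interleukin median stood 0.37 above that of all genes with TMM and by total counts, and 0.08 above it in TPM. The 8 genes called higher were also called higher on each of these scales. Of the 15 measured genes below 0 with TMM, 9 were above 0 in TPM, namely Il10rb, Il11ra1, Il13ra1, Il15ra, Il17rd, Il18, Il2ra, Il3ra and Il4ra. The 8 genes called higher with TMM stayed above the median of all genes on each of these scales, and the 4 called lower stayed below it.

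**Figure D1:**
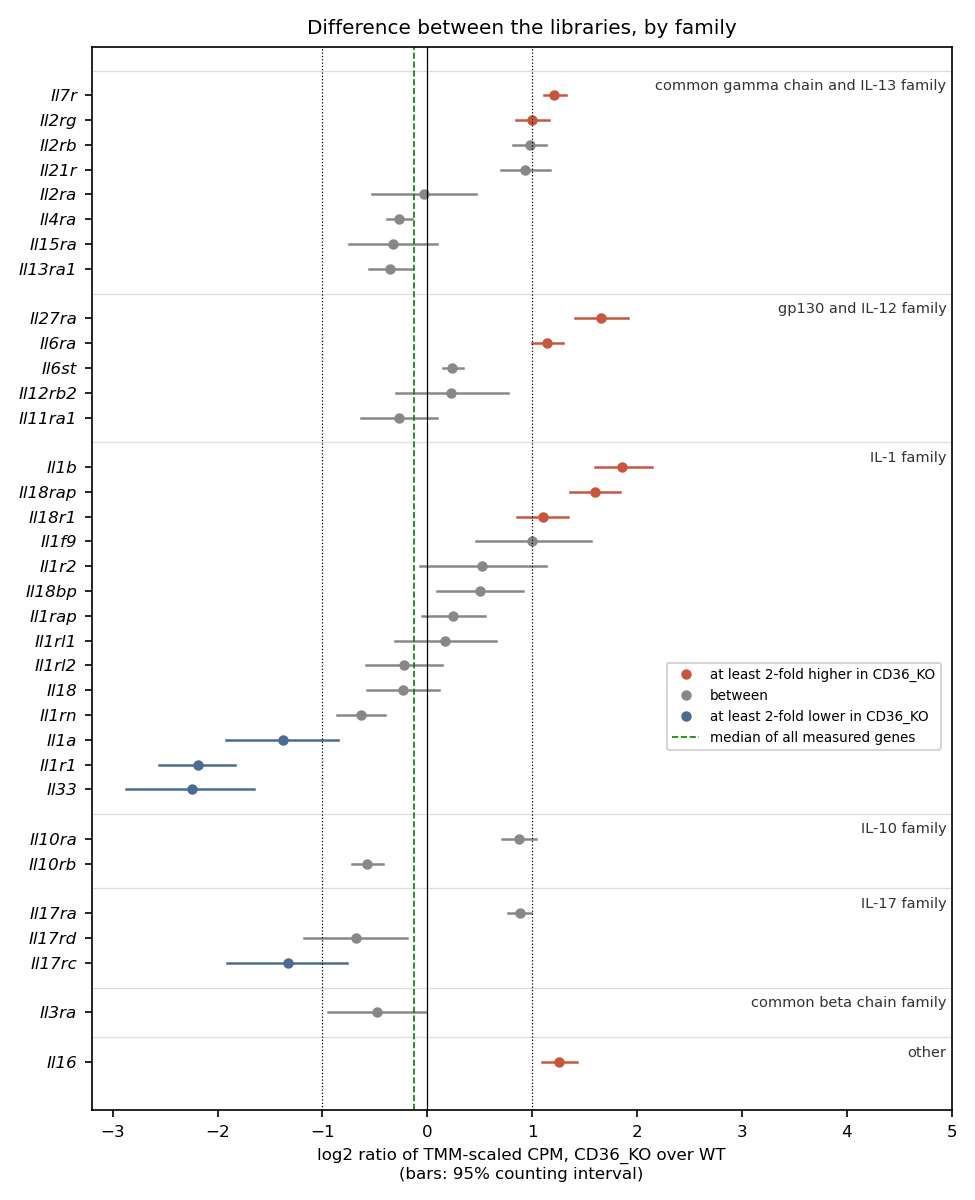
Log2 ratio of TMM-scaled CPM, CD36_KO over WT, of the 34 measured interleukin genes (x axis), grouped by family, with 95% counting intervals as bars. The dashed line is the median of all measured genes at -0.13, and the IL-1 family spans both the highest value, Il1b at 1.86, and the lowest, Il33 at -2.24.

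By role, 25 of 38 receptor chains were measured, with 6 higher, 2 lower and 17 between. Of 37 ligands 6 were measured, with 2 higher, 2 lower and 2 between. Of 6 antagonists and decoys 3 were measured and none passed the 2-fold rule. All 38 receptor chains together held 10168 WT and 17460 CD36_KO counts, and the 37 ligands 1071 and 2206. Receptor genes thus held most of the interleukin counts in both libraries, though counts are not scaled for length.

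Il7r, the IL-7 receptor alpha chain that naive and memory T cells carry, had the highest mean TPM of the family (ENSMUSG00000003882.5, chr15:9505788-9530176). Its counts were 229, 263, 253 and 261 in the WT lanes and 704, 642, 706 and 697 in the CD36_KO lanes. Every CD36_KO lane lay above every WT lane, and the levels were 18.1 ± 1.46 and 65.5 ± 1.37 TPM (SD, n = 4 lanes). The log2 ratio was 1.21 (95% counting interval 1.11 to 1.32), or 2.32-fold on the CPM scale. Il2rg, the common gamma chain that pairs with it (ENSMUSG00000031304.18, chrX:101264378-101268255), gave 123, 119, 139 and 123 counts against 295, 298, 292 and 307. Its lanes did not overlap, its level was 17.7 ± 1.84 against 51.4 ± 1.04 TPM, and its log2 ratio of 1.00 (0.85 to 1.16) stood just inside the 2-fold rule. Without CD36_KO lane 4 the log2 ratio of Il2rg was 0.99, which ends its call. Of its 31-base words 28.7% are shared with Gm20489, a gene model on the same strand with 0 counts in both libraries.

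Il2rb, the beta chain shared by the IL-2 and IL-15 receptors, had 481 counts against 1117 and a log2 ratio of 0.98 (0.82 to 1.13). It stood just outside the 2-fold rule, next to Il2rg, so these values do not separate the chains. Il21r, the receptor of the helper T cell cytokine IL-21, was similar at 214 against 482 counts and 0.93 (0.70 to 1.17). Il2ra, the alpha chain that activated and regulatory T cells carry, had 66 against 76 counts and a log2 ratio of -0.03 (-0.53 to 0.46). Il15ra had 101 against 95 counts, Il4ra 1230 against 1205 and Il13ra1 423 against 390, with log2 ratios of -0.33, -0.27 and -0.36. Most counts of Il15ra, 78.6% in WT and 88.0% in CD36_KO, were assigned to transcripts not annotated as protein-coding. For Il4ra these shares were 63.9% and 56.1%, so neither total is a level of receptor-coding RNA. Il4ra carries the IL-4 and IL-13 signal in lymphocytes and macrophages alike, and Il13ra1 pairs with it in non-lymphoid cells. Within this family the interval of Il7r and that of Il2ra did not overlap, so these receptor chains did not differ equally.

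The ligands of this family had few counts. Il2, Il4, Il7, Il9, Il13, Il15 and Il21 had 49 WT and 66 CD36_KO counts together, and none was measured. Il15, which macrophages and dendritic cells present to T cells, held most of them with 30 and 45 counts and a log2 ratio of 0.35 (-0.35 to 1.06). In TPM, which allow for length, Il15 stood at 2.43 ± 1.63 and 4.08 ± 1.57. Il7, made by stromal cells, had 7 and 8 counts, Il21 4 and 8, Il4 4 and 3, Il2 3 and 1, Il13 1 and 1, and Il9 had none. Il9r had 16 and 21 counts, and the IL-13 decoy receptor Il13ra2 had 2 and 1. A count of 0 allows a level of up to 0.319 CPM for WT and 0.27 CPM for CD36_KO, taking 3 counts as the limit, for counting error only.

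Among the measured genes of the gp130 and IL-12 family, Il27ra, the receptor chain for IL-27 that T cells carry, had the largest ratio (ENSMUSG00000005465.9, chr8:84030294-84042589). It gave 38, 38, 46 and 48 counts in the WT lanes and 152, 154, 153 and 173 in the CD36_KO lanes. No lanes overlapped, the levels were 4.31 ± 0.843 and 20.3 ± 1.91 TPM, and the log2 ratio was 1.66 (1.41 to 1.91), or 3.15-fold. Il6ra, the IL-6 binding chain of T cells, hepatocytes and myeloid cells (ENSMUSG00000027947.11, chr3:89864059-89913196), gave 131, 123, 114 and 150 counts against 327, 340, 343 and 339. Its lanes did not overlap either, with 5.25 ± 0.844 against 15.7 ± 0.889 TPM and a log2 ratio of 1.14 (1.00 to 1.29). Il6st, which encodes gp130 (ENSMUSG00000021756.12, chr13:112464070-112510086), gave 405, 428, 406 and 368 counts against 575, 558, 532 and 577. Its CPM lanes did not overlap, but its TPM of 24.0 ± 8.93 and 28.9 ± 5.5 did, and its log2 ratio was 0.24 (0.15 to 0.34). The signalling chain gp130 was therefore 1.18-fold higher in the CD36_KO library, against 3.15-fold and 2.21-fold for Il27ra and Il6ra.

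Il12rb2, the chain that gives T cells their IL-12 response, had 52 and 72 counts and a log2 ratio of 0.23 (-0.30 to 0.77). Its transcripts share 38.6% of their 31-base words with Serbp1 on the opposite strand, which had 2392 and 2098 counts, and the sources used here do not give the strand setting. Its partner Il12rb1 was under 5 CPM with 27 and 60 counts and a log2 ratio of 0.91 (0.24 to 1.63). Il11ra1, a receptor of stromal cells, had 133 and 130 counts and shares 57.7% of its words with Gm13305, which had 0 counts. Its near copy Il11ra2 shares all its words with the same model and had no counts, so the division between these copies is uncertain. Il31ra had 15 and 31 counts and Il23r 3 and 5.

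The ligands of this family held 44 and 46 counts in all. Il27 had 8 and 18 counts, Il6 7 and 9, Il23a 7 and 11, Il11 8 and 6, and Il31 none. Il12b, the p40 chain that dendritic cells and macrophages make for IL-12 and IL-23, had 12 WT counts and 1 CD36_KO count, a log2 ratio of -3.82 with an interval of -9.24 to -1.07. Its partner Il12a had 2 and 1 counts. A wider list held 21 signalling partners outside the symbol rule, for gamma chain, IL-6 and IL-12 receptors, and included Csf2rb, Crlf2 and Traf3ip2. Of these 21 genes 20 were measured, 1 was higher, 1 was lower and 18 lay between, with a median log2 ratio of 0.06. The higher one was Stat4, which carries the IL-12 signal, with 199 and 588 counts and a log2 ratio of 1.32 (1.09 to 1.56). The lower one was Osmr, the oncostatin M receptor that pairs with gp130, with 286 and 65 counts and -2.38 (-2.79 to -1.98). Jak1, the kinase that gamma chain and gp130 receptors share, was at 0.85 and Socs3, an inhibitor induced by gp130 signals, at -0.73.

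**Figure D2:**
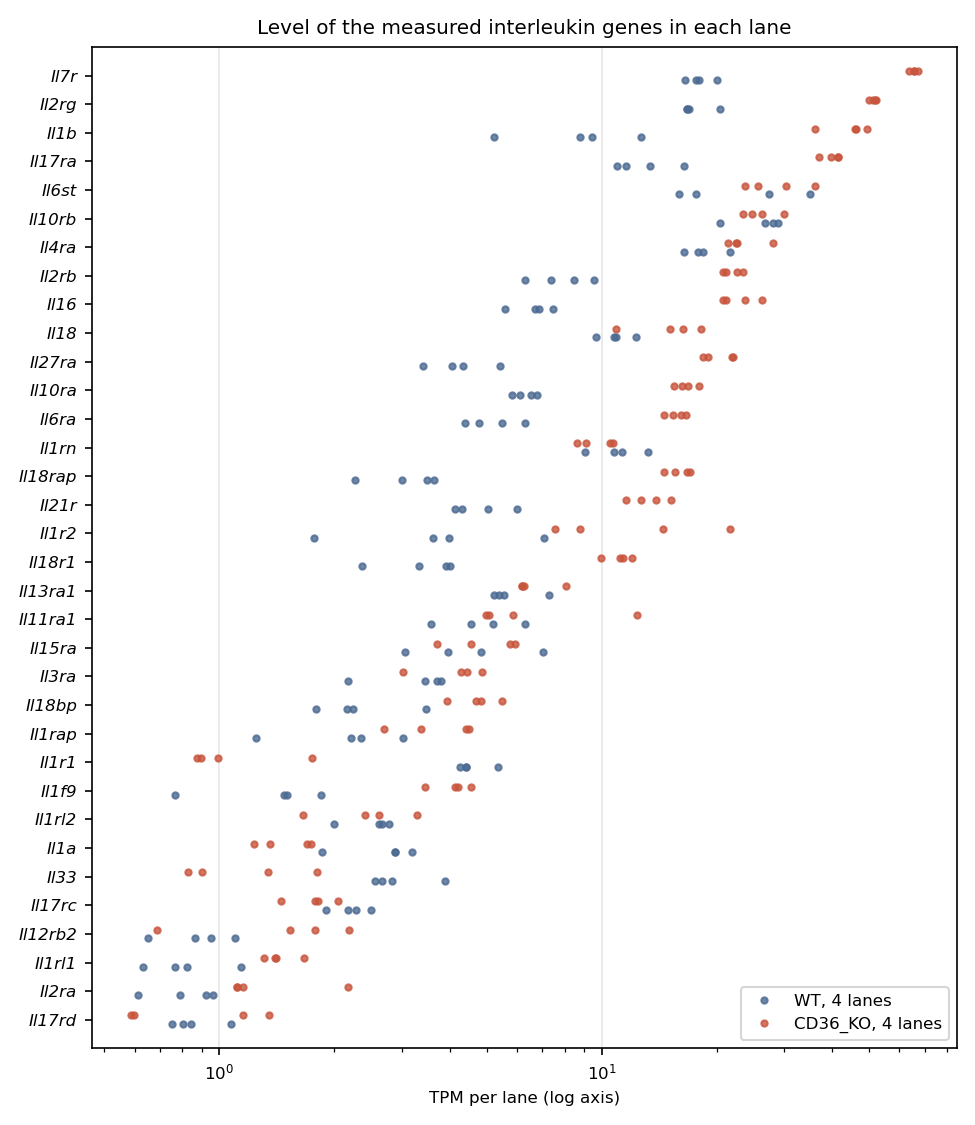
TPM in each of the 4 lanes per library (x axis, log scale) for the 34 measured interleukin genes, ordered by the mean TPM of the libraries. Blue points are WT and red points CD36_KO lanes, and Il7r stands highest with 18.1 against 65.5 TPM on average.

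The IL-1 family, with 14 of 20 genes measured, was divided, with 3 higher, 3 lower and 8 between. Il1b, the inflammatory ligand that monocytes and neutrophils make (ENSMUSG00000027398.13, chr2:129364570-129371139), gave 49, 36, 32 and 23 counts in the WT lanes and 156, 136, 157 and 152 in the CD36_KO lanes. Its lanes did not overlap, its level was 9.04 ± 3.06 against 44.5 ± 5.80 TPM, and its log2 ratio was 1.86 (1.60 to 2.14), or 3.64-fold. Il1a, the ligand that dying cells release (ENSMUSG00000027399.1, chr2:129299610-129309972), differed in the opposite direction. It gave 18, 29, 27 and 26 counts in the WT lanes and 13, 13, 10 and 9 in the CD36_KO lanes, with no overlap in CPM and a log2 ratio of -1.38 (-1.92 to -0.85). In TPM its levels were 2.70 ± 0.583 and 1.5 ± 0.252, and taken as log2(TPM + 1) the ratio was -0.56, which ends its call. Il1a and Il1b lie within 71.5 kb on chromosome 2 and are read from the same strand, and their windows printed above both hold TATAAA.

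Il1r1, the signalling receptor of both ligands (ENSMUSG00000026072.12, chr1:40225080-40317257), gave 80, 77, 84 and 68 counts in the WT lanes and 21, 19, 21 and 19 in the CD36_KO lanes. The lanes were far apart, with 4.61 ± 0.503 against 1.13 ± 0.415 TPM and a log2 ratio of -2.19 (-2.56 to -1.83), or 4.56-fold higher in WT. Il1b and its receptor thus differed in opposite directions between the libraries. Il1rap, the accessory chain, had 161 and 226 counts and a log2 ratio of 0.25 (-0.05 to 0.55). The IL-1 receptor antagonist Il1rn had 361 and 275 counts and a log2 ratio of -0.63 (-0.86 to -0.40), with 11.1 ± 1.69 and 9.74 ± 1.02 TPM. In TPM the antagonist and Il1b were within the lane spread of each other in the WT library, and Il1b was above the antagonist in the CD36_KO library. The decoy receptor Il1r2, a neutrophil and monocyte gene, had 39 and 66 counts and a log2 ratio of 0.52 (-0.07 to 1.13).

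Il18rap and Il18r1 encode the paired chains of the IL-18 receptor of T and NK cells, and both were higher. Il18rap (ENSMUSG00000026068.11, chr1:40515362-40551705) gave 39, 55, 42 and 49 counts in the WT lanes and 154, 175, 165 and 167 in the CD36_KO lanes. Its level was 3.10 ± 0.623 against 16.0 ± 1.14 TPM, and its log2 ratio was 1.60 (1.36 to 1.84), or 3.02-fold. Of the Il18rap counts 41.1% in WT and 35.0% in CD36_KO were assigned to transcripts not annotated as protein-coding. Over coding transcripts only its log2 ratio was 1.90. Il18r1 (ENSMUSG00000026070.15, chr1:40465552-40500854) gave 65, 35, 46 and 52 counts against 134, 112, 124 and 130. The lanes of neither gene overlapped, and Il18r1 stood at 3.40 ± 0.759 against 11.1 ± 0.844 TPM with a log2 ratio of 1.10 (0.86 to 1.34). Il18, their ligand, had 144 and 145 counts and a log2 ratio of -0.23 (-0.57 to 0.11). Il18bp, the secreted protein that binds and blocks IL-18, had 81 and 135 counts and a log2 ratio of 0.50. So the receptor chains were higher in the CD36_KO library while the ligand had near-equal counts.

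Il33, the nuclear alarm cytokine of stromal and endothelial cells (ENSMUSG00000024810.16, chr19:29925114-29960718), gave 28, 36, 31 and 25 counts in the WT lanes and 7, 8, 7 and 8 in the CD36_KO lanes. Its lanes did not overlap, its level was 2.99 ± 0.619 against 1.22 ± 0.451 TPM, and its log2 ratio was -2.24 (-2.87 to -1.65). Taken as log2(TPM + 1) it was -0.85, which ends its call, and with a pseudocount of 0.1 it was -1.23, which keeps it. Il1rl1, which encodes the IL-33 receptor ST2, had 64 and 85 counts and a log2 ratio of 0.17 (-0.31 to 0.66). Il1f9, which encodes the epithelial and myeloid ligand IL-36 gamma, had 42 and 99 counts and a log2 ratio of 1.00 (0.46 to 1.56), which is 0.9988 before rounding and just outside the rule. Its receptor Il1rl2 had 131 and 133 counts at -0.22. Il1f6 had 1 and 0 counts, Il1f5, Il1f8 and Il1f10 had none, Il1rapl1 had 6 and 5, and Il1rapl2 0 and 1. The 13 other genes listed for IL-1 signalling, inflammasome genes among them, were all measured and all lay between, with a median log2 ratio of 0.02. The largest of these values were 0.81 for Sigirr, an inhibitory receptor of the family, -0.51 for Pycard, an inflammasome adaptor, -0.47 for Traf6 and 0.34 for Casp1.

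A set of 6 IL-1 receptor family genes lies in a row over 477.6 kb of chromosome 1, and their ratios differed along it. In order of coordinate they were 0.52 for Il1r2, -2.19 for Il1r1, -0.22 for Il1rl2, 0.17 for Il1rl1, 1.10 for Il18r1 and 1.60 for Il18rap. The intervals of Il1r1 and of the IL-18 receptor genes did not overlap that of any other gene in the row, except that Il18r1 overlapped Il1r2. A second group on chromosome 2, spanning 165.0 kb, held Il1f9 at 1.00 and Il1rn at -0.63 at its ends, with Il1f6, Il1f5 and Il1f10 near or at 0 counts between them. On chromosome 7, Il4ra and Il21r lie within 81.4 kb at -0.27 and 0.93.

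**Figure D3:**
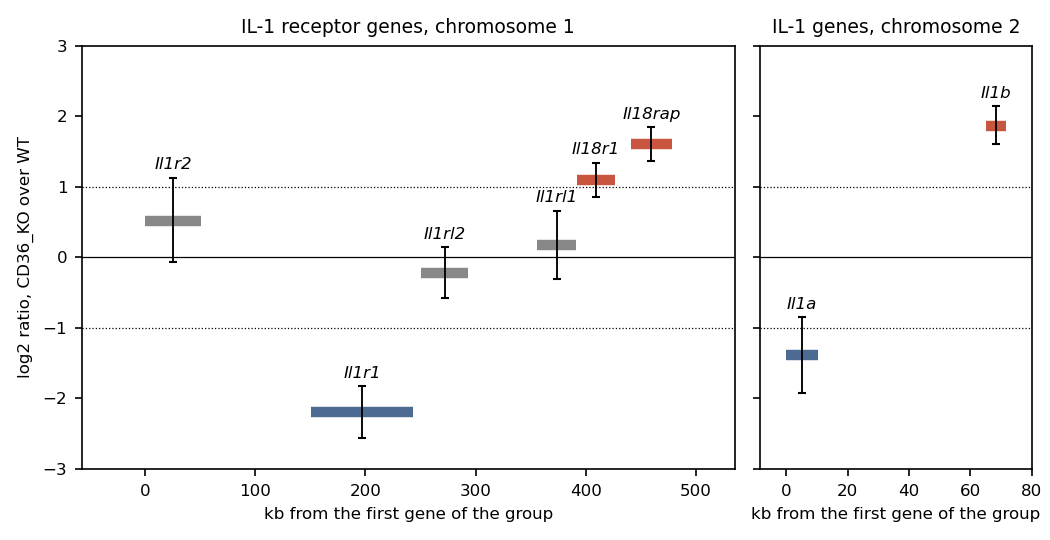
Log2 ratio, CD36_KO over WT (y axis), against distance in kb from the first gene (x axis) for the IL-1 receptor genes of chromosome 1 and for Il1a and Il1b on chromosome 2. Thick bars are gene spans and thin bars 95% counting intervals, and neighbours differ, as Il1a at -1.38 and Il1b at 1.86.

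In the IL-17 family the receptor chains held nearly all counts. Il17ra, the chain shared by the IL-17 receptors of many cell types (ENSMUSG00000002897.5, chr6:120463247-120487559), gave 233, 250, 230 and 226 counts in the WT lanes and 531, 490, 491 and 526 in the CD36_KO lanes. Its lanes did not overlap, its level was 13.1 ± 2.4 against 40 ± 2.12 TPM, and its log2 ratio was 0.88 (0.77 to 0.99), under the 2-fold rule. Most of its counts, 75.9% and 74.0%, were assigned to transcripts that code for no protein, chiefly a retained-intron form with 650.7 and 1318.9 counts. Il17rc, which pairs with Il17ra in stromal and epithelial cells (ENSMUSG00000030281.16, chr6:113471427-113483140), was lower, with 19, 21, 22 and 23 counts against 8, 9, 13 and 10. Its log2 ratio was -1.33 (-1.91 to -0.77) with no overlap of lanes in CPM, and its TPM of 2.21 ± 0.243 and 1.77 ± 0.245 overlapped. Taken as log2(TPM + 1) it was -0.21, which ends its call. Il17rd had 83 and 61 counts at -0.68, Il17rb 27 and 42, and Il17re 15 and 14. The 6 ligands held 18 and 38 counts, of which Il17c had 10 and 23, Il17f 2 and 7, Il17d 0 and 7, Il17b 5 and 1, Il25 1 and 0, and Il17a none.

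In the IL-10 family the chains of the IL-10 receptor differed from each other. Il10ra, the leukocyte chain, had 421 and 910 counts and a log2 ratio of 0.87 (0.71 to 1.04). Il10rb, the chain that IL-10, IL-22 and interferon-lambda receptors share (ENSMUSG00000022969.13, chr16:91406164-91425834), gave 232, 203, 201 and 182 counts in the WT lanes and 170, 150, 155 and 176 in the CD36_KO lanes. Its lanes did not overlap in CPM and its log2 ratio was -0.57 (-0.72 to -0.42), but in TPM it was equal, at 26.0 ± 3.86 and 26.1 ± 2.82. Il22ra1, an epithelial receptor, had 26 and 4 counts and a log2 ratio of -2.94 (-4.92 to -1.41), under the level set for measured genes. Il20rb had 31 and 24 counts, Il20ra 1 and 0, and the decoy Il22ra2 0 and 1. Among the ligands Il10 had 4 and 6 counts, Il24 0 and 4, Il19 1 and 0, and Il20 and Il22 none, and Il22 shares 53.6% of its words with its copy Iltifb.

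The remaining genes were few. Il3ra, the IL-3 receptor of basophils and plasmacytoid dendritic cells, had 85 and 72 counts and a log2 ratio of -0.48. Il5ra, the IL-5 receptor of eosinophils and some B cells, had 18 and 65 counts and a log2 ratio of 1.61 (0.84 to 2.46), under the level set for measured genes. Both of their ligands, Il3 and Il5, had no counts. Il34, a ligand of the CSF1 receptor, had 12 and 7 counts, and the enzyme gene Il4i1 45 and 39. Il4i1 shares 80.5% of its words, mostly with Tbc1d17 on the opposite strand, so its counts are uncertain.

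Il16, which encodes the precursor of a CD4-binding chemoattractant made by lymphocytes, had the most counts of the ligands, not scaled for length (ENSMUSG00000001741.12, chr7:83642825-83745726). It gave 91, 102, 103 and 101 counts in the WT lanes and 257, 254, 320 and 288 in the CD36_KO lanes. No lanes overlapped, the levels were 6.64 ± 0.789 and 23.0 ± 2.54 TPM, and the log2 ratio was 1.26 (1.09 to 1.43), or 2.39-fold. Its transcripts were looked at after their values were seen. The short transcript Il16-203, from the start at 83655495, held 257.8 WT and 861.6 CD36_KO counts. The long transcript Il16-201, from the start at 83735523 in GENCODE, a few bases from the RefSeq start of the window printed above, held 58.8 and 60.9. The lanes of the short form were 57.8, 63.8, 69.2 and 67.0 against 187.4, 202.8, 237.7 and 233.7, and those of the long form 14.7, 12.3, 12.9 and 18.9 against 14.6, 9.8, 24.3 and 12.2. The short form thus did not overlap between the libraries while the long form did. Of the Il16 words 16.6% are shared, mostly with Stard5 on the opposite strand, which had 282 and 405 counts.

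Il1r1 also had a pair of coding forms. Il1r1-202, from the downstream start whose window held none of the motifs, held 60.1, 60.1, 40.9 and 49.3 counts in the WT lanes and 0.0, 7.6, 2.9 and 19.0 in the CD36_KO lanes. Il1r1-201, from the upstream start, held 15.9, 14.9, 41.1 and 16.3 against 21, 11.4, 17.1 and 0.0. The downstream form made up 68.1% of the WT and 36.9% of the CD36_KO counts of the gene. The CD36_KO lanes, however, divided a steady 19 to 21 counts between the forms in every proportion, so the share in that library is poorly determined. Il33 was similar, with 66.8% and 38.3% of its counts on Il33-201 and 80.2 against 11.5 counts.

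For Il1rl1 the division cannot be read. Il1rl1-202 and Il1rl1-201 are both long, at 5302 and 5053 bases, and the shorter Il1rl1-203, of 2661 bases, held 1.0 WT and 9.3 CD36_KO counts. Il1rl1-202 held 17.3, 14.7, 0.0 and 0.0 counts in the WT lanes, and Il1rl1-201 held 0.0, 0.0, 12.5 and 13.1. Lanes of the same library thus assigned the same gene to different forms. The CD36_KO lanes held 19.2, 20, 20.4 and 12.6 counts on Il1rl1-201 and none on Il1rl1-202. Il18, Il11ra1 and Il3ra showed such lane-to-lane swaps too. Il1rn was stable, with 81.5% and 85.8% on Il1rn-201, and the 45 CD36_KO counts of Il15 were spread over coding forms of at most 19.5 counts each. In Il1r2 the 366-base form Il1r2-203 held 13.0 and 33.0 counts, and the gene's TPM of 4.11 ± 2.20 and 13.1 ± 6.41 varied widely between lanes.

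**Figure D4:**
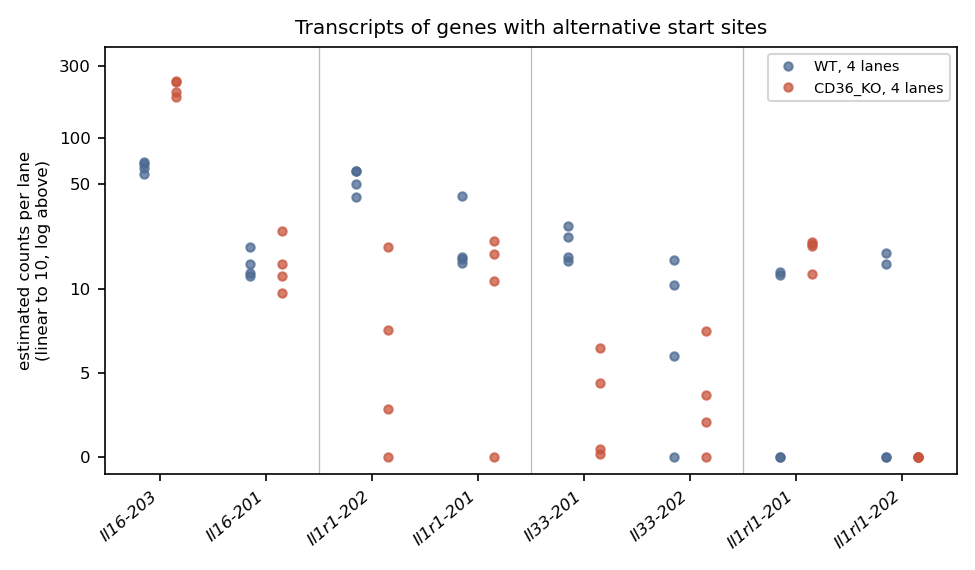
Estimated counts per lane (y axis, linear to 10 and logarithmic above) of coding transcripts with different start sites, WT in blue and CD36_KO in red. Il16-203 separates the libraries and Il16-201 does not, and the lanes of Il1rl1 jump between 0 and 12.5 to 20.4 counts; points at 0 lie on top of each other.

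The receptor genes that were higher in the CD36_KO library stood beside CD8 T cell markers that were higher too. All 9 markers of that list passed the 2-fold rule, with log2 ratios from 1.2 for Cd2 to 2.26 for Cd3g and a median of 1.70, and no marker was at 0. Set against the summed TPM of those markers, 131 in the WT and 633 in the CD36_KO library, Il7r made up 13.8% ± 1.38 in the WT lanes and 10.4% ± 0.306 in the CD36_KO lanes. Il2rg was at 13.5% ± 1.63 and 8.12% ± 0.44, Il2rb at 6.03% ± 1.07 and 3.48% ± 0.199, and Il21r at 3.71% ± 0.677 and 2.11% ± 0.228. Il2ra was at 0.625% ± 0.114 and 0.221% ± 0.0921, and Il12rb2 at 0.678% ± 0.138 and 0.243% ± 0.1. Il18r1 was at 2.58% ± 0.527 and 1.76% ± 0.0918, and Il16 at 5.06% ± 0.627 and 3.62% ± 0.337. Il18rap at 2.37% ± 0.5 and 2.53% ± 0.256 and Il27ra at 3.27% ± 0.505 and 3.23% ± 0.442 were within the spread of lanes. Relative to these markers no listed gene was higher in the CD36_KO library beyond the lane spread, and the part of T cell content in the ratios was not tested. Of 7 NK and innate lymphoid markers 4 were measured, of which Eomes (1.12) and Gata3 (1.43) were higher by the 2-fold rule and 2 lay between, and none was at 0. Their sum of 144 to 170 against 167 to 176 CPM rests mostly on Tyrobp, with 1068 and 1065 counts. Under 5 CPM, Klrb1c had 10 and 56 counts, Ncr1 14 and 33, and Klra8 8 and 25.

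Markers of other cells stood beside the remaining differences. For Il1b, Il1r2, Il6ra and Il1f9, 5 of 6 neutrophil markers were measured and all 5 were at least 2-fold higher, summed at 72.5 to 85.9 CPM in WT lanes and 235 to 265 CPM in CD36_KO lanes, while Ly6g had 4 and 10 counts. Hepatocyte markers, 6 of 6 higher, were at 89.1 to 113 against 716 to 723 CPM, and stand beside Il6ra too. For Il5ra, 5 of 5 B cell markers were higher, at 8.69 to 13.5 against 61.6 to 71.8 CPM. For Il1r1, Il33, Il17rc and Osmr, 5 of 6 fibroblast markers were measured and all 5 were at least 2-fold lower, at 1140 to 1190 against 254 to 265 CPM. Endothelial markers stand beside Il33 as well, and all 5 lay between, at 189 to 213 against 250 to 268 CPM with a median of 0.58. Lung epithelium markers, 5 of 6 measured, stand beside Il17rc, with 3 higher and 2 between, at 48.9 to 62.1 against 168 to 186 CPM and a median of 1.06. All 7 melanoma markers were lower, with a median of -2.25. That median and the fibroblast median of -2.2 were both close to the ratios of Il33 and Il1r1. The mast cell and basophil genes Mcpt4, Mcpt8 and Fcer1a were at 0 in at least 1 library. The part of these cells in the interleukin values was not tested.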

How the data were processed

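The libraries were made from total RNA with standard Illumina preparation, per the labels' protocols, and the sources used here do not give the sort gates, read layout or strand setting. The submitters' processing notes name kallisto and DESeq2 with build GRCm38.p6, without versions or roles. Each deposited file gives estimated counts, TPM and lengths per transcript, per the file headers. The deposited estimated counts are not normalised, and in each lane 32.8% to 34.3% of the values, zeros included, lay over 0.001 from a whole number. The deposited TPM values are scaled by the authors' tool for length and for the total of the lane, so they sum to 1000000. The deposited lengths are in bases and were used only to describe transcripts.

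Estimated counts were summed over the transcripts of a gene, then over the 4 lanes of a library, and rounded. TMM factors, 0.934 for WT and 1.07 for CD36_KO, came from edgeR 4.0.16 in R 4.3.3. The log2 ratio of scaled CPM carries a 95% interval from the exact Clopper-Pearson method on the share of counts, and this covers counting error only, because without molecular identifiers reads need not be separate molecules. A gene was measured from a mean of 5 CPM upward, and the 2-fold rule needed an absolute log2 ratio of at least 1 and an interval excluding 0. No test over lanes was made, because lanes of 1 library are not replicates. Fold changes in TPM were taken as log2(TPM + 1), which understates low genes. Calls in TPM needed an absolute log2 ratio of at least 1 and no interval, a looser rule than for CPM. The ratio, interval and 2-fold rule were run on simulated counts that held counting error only, at known library sizes. The simulation therefore does not test the TMM scaling, the transcript assignment, the TPM values or the sequence steps. Positions came from GENCODE M21 (GRCm38), where 99.7% of 55335 gene identifiers matched, and all 82 interleukin genes did. Upstream sequences came from RefSeq on GRCm38.p6. Sharing of 31-base words was computed between the transcripts of different genes.

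Genes named with values in each lane were those passing the 2-fold rule and the 6 with the highest mean TPM, 15 in all. Transcripts were described where a gene's coding forms with at least 20 counts differed in share by at least 20 percentage points, and for Il1rl1, Il1rn and Il15. Il16 falls outside that rule, and its transcripts were chosen after their values were seen. The genes, families and marker lists were chosen with earlier results of these data known. Alternatives were total counts, DESeq2 1.42.0 size factors, TPM with a pseudocount of 1 or 0.1, minimums of 20 and 1 CPM, coding transcripts only, and leaving out each lane.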

Additional observations from a re-analysis of the deposited data

Results flagged for a closer look

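In 7 of 68 groups of 4 lanes of a measured gene, 1 lane lay apart from the other three by Dixon's criterion, which chance does for about 1 group in 20. Il7r had 233 CPM in CD36_KO lane 2 against 252 to 253 CPM in the others. Il17ra had 107 CPM in WT lane 2 against 96.6 to 98.1 CPM. Il6ra had 117 CPM in CD36_KO lane 1 against 123 to 124 CPM. Il16 had 38.4 CPM in WT lane 1 against 43.1 to 43.7 CPM. Il13ra1 had 42.5 CPM in CD36_KO lane 4 against 32.2 to 33.1 CPM. Il1b had 49.4 CPM in CD36_KO lane 2 against 55.2 to 56.2 CPM. Il1rl1 had 5.07 CPM in CD36_KO lane 4 against 8.28 to 8.78 CPM. Without the lane named, the log2 ratio of Il7r, Il6ra, Il16 and Il1b stayed at or above 1.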

How the results depend on the processing

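The number of genes called higher in CD36_KO was 8 with TMM, 13 by total counts and 15 over coding transcripts only. Of all measured genes 6.5%, 9.14% and 8.75% were higher under these settings. In TPM the number was 14 with either pseudocount, against 12.33% of all measured genes with 1 and 18.81% with 0.1. The number lower was 4 with TMM, 1 in TPM with a pseudocount of 1 and 2 in TPM with a pseudocount of 0.1. It was 1 with a minimum of 20 CPM, under which Il33, Il1a and Il17rc are not measured. The shares of all measured genes were 10.8% with TMM, 2.7% and 4.02% in TPM, and 10.03% with that minimum. The median log2 ratio was 0.24 with TMM, 0.43 by total counts, 0.44 and 0.72 in TPM with a pseudocount of 1 and 0.1, 0.96 with a minimum of 20 CPM, where 18 genes remain, and 0.49 over coding transcripts only. Size factors gave 9 and 4 genes and a median of 0.25, and a minimum of 1 CPM gave 9 and 5, adding Il5ra and Il22ra1. Of all measured genes size factors called 6.69% higher and 10.41% lower, and the minimum of 1 CPM 10.07% and 10.96%. Leaving out 1 lane at a time gave 7 to 11 higher genes, 4 to 4 lower genes and medians of 0.15 to 0.30. The 8 higher genes were called under every alternative except Il2rg without CD36_KO lane 4. The cause of the differences between scales was not tested. No paired analysis was possible because the lane numbers shared by the libraries belong to 1 library per genotype and the results come from no test. Genes under 5 CPM rest on few counts, so their ratios are known only within wide intervals, and no number here measures variation between mice.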
